A study of Sus scrofa with 30 samples.

Results

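Chemokines are small secreted proteins that draw leukocytes along a gradient by binding G protein-coupled receptors on them. CXC ligands with the ELR motif, such as CXCL2 and CXCL8, attract mainly neutrophils, CXCL10 is induced by interferons and attracts activated T cells, CCL2 attracts monocytes, CCL5 attracts T cells and monocytes, and CXCL12, CXCL14, CCL19 and CCL21 are made in many tissues without inflammation. In the mammary gland, leukocytes recruited by such signals live in the stroma and between epithelial cells and pass into colostrum and milk. The gland's chemokines were followed here through 10 ligand genes, chosen by name: CXCL2, CXCL8, CXCL10, CXCL12, CXCL14, CXCL16, CCL2, CCL5, CCL19 and CCL21. Each gene was measured as the sum of its reference transcripts. All 10 were measured, through 13 of the 61773 transcripts, and they are 10 of the 26012 gene sums, of which 14951 are named genes and 11061 are loci assembled by the authors.

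The tissue was mammary parenchyma of sows that had farrowed before, half-siblings from a cross of Danish Landrace with Yorkshire, taken from different sows at each stage, with no transgene or treatment. The stages were mid-gestation (MG, day 70 of gestation), late gestation (LG, day 110 of gestation), early lactation (EL, day 2 postpartum), peak lactation (PL, day 10 postpartum) and day 2 after weaning (W2), with 6 sows each and 30 in all. In 12 records the stage field differs from the title: samples titled EL carry the mid-gestation name and samples titled MG the early lactation name. The titles were followed, and CSN2, the beta-casein gene, lay between 4862 and 16980 units in the samples titled MG and between 33160 and 58720 units in those titled EL. In every stage 3 of the 6 samples were near-identical to each other and to the mean of the other 3, with median differences of at most 1.85% among them against 19.6% to 59.8% among the others, so 3 samples per stage were counted and every SD below has n = 3.

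The values are on a scale that corrects for transcript length, and each sample sums to between 997480 and 1002643, as TPM values do. They are called units below. Read counts were not used here, so no depth stands behind a single value. A call is an adjusted p below 0.05 in limma, run on log2(value + 0.5) of all 26012 gene sums with the 5 stages in a single fit, and a log2 fold change is on that scale, which understates the change of low genes. PL replicate 2 stood apart: its 20 most abundant transcripts held 59.9% of its units, against 25.6% to 43.0% in the other 14 counted samples. The median of the 12003 gene sums with a mean of at least 5 units lay at -0.70 in PL vs MG and at 0.81 in W2 vs PL. Scaling by the median ratio of well-expressed transcripts brought these medians to -0.07 and 0.12, and it changed the split of calls in PL vs MG from 580 higher and 5982 lower to 1329 and 1525, and in W2 vs PL from 7899 higher and 644 lower to 1995 and 1447. The members' lower calls in PL are therefore given with their values under that scaling. Markers of the labelled tissue were present: EPCAM, an epithelial adhesion molecule, lay between 475 and 754 units in all 15 samples.

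On the Sscrofa11.1 build, 3 members lie on chromosome 8: CXCL8 at 69932646 to 69935861, CXCL2 at 70157253 to 70159145 and CXCL10 at 71693641 to 71695948. Another 3 lie on chromosome 12: CCL5 at 39652731 to 39659121, CCL2 at 40798109 to 40800013 and CXCL16 at 52145100 to 52150267. CCL21 (32093783 to 32094482) and CCL19 (32110366 to 32112529) are neighbours on chromosome 10, within 18.7 kb that hold no other annotated gene. CXCL14 lies on chromosome 2 at 137803988 to 137813118, and CXCL12 on chromosome 14 at 91516383 to 91543857. In the table CXCL12 has 3 transcripts and CXCL16 has 2, described with those genes. Each other member has 1: NM_001001861.2 (CXCL2), NM_213867.1 (CXCL8), NM_001008691.1 (CXCL10), NM_001244128.1 (CXCL14), NM_214214.1 (CCL2), NM_001129946.1 (CCL5), NM_001170516.1 (CCL19) and NM_001005151.1 (CCL21).

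CXCL10 was the most abundant member, with a mean of 67.2 units over the 15 samples, above 95.3% of all gene sums or level with them. CCL21 followed with 39.2, CXCL16 with 30.5, CXCL14 with 24.3, CCL2 with 18.8, CCL5 with 18.3 and CXCL12 with 10.3 units. CCL19 (4.21), CXCL2 (2.70) and CXCL8 (2.02) were the lowest. Of the 10 genes, 4 were called in at least 1 of the 10 stage comparisons, CXCL2, CXCL12, CXCL14 and CCL5, beside 36% of all gene sums. Every one of these calls was a comparison with PL. No member was called in the 6 comparisons without PL, in which 0.581% of all gene sums were called. The only member with an unadjusted p below 0.05 there was CXCL16 in W2 vs EL (log2 fold change 1.37, unadjusted p = 0.048, adjusted p = 0.195). When only the compared stages entered each fit, 1 member kept a call, CXCL2 in PL vs MG.

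A count of genes whose samples do not overlap between 2 stages adds what the calls leave out. In LG vs MG, 1 member (CXCL14) lay lower without overlap, beside 11.4% of gene sums, and calls made up 0.0115% (0.00769% higher, 0.00384% lower). In EL vs MG, 4 members lay lower (CXCL14, CXCL16, CCL5 and CCL21) and none higher, beside 27.5% and 2.4% of gene sums (29.9% in all), with 0.0269% called, all of them past a log2 fold change of 2 in size. In EL vs LG, 2 lay lower (CXCL14 and CXCL16) and none higher, beside 16% and 2.13%, with 0.00769% called in each direction. In W2 vs MG, CXCL8 lay higher and CXCL10 lower, beside 8.2% and 2.21%, with calls at 0.00769% and 0.00384%. In W2 vs LG, CXCL8 and CXCL16 lay higher and CXCL10 lower, beside 19.6% and 2.54% (22.1% in all). In W2 vs EL, CXCL8, CXCL14, CXCL16 and CCL2 lay higher, beside 35.5%, and CXCL10 lower, beside 2.68%. In PL vs MG, 1 lay higher (CXCL2) and 4 lower (CXCL12, CXCL14, CCL5 and CCL21), beside 3.36% and 35.9%. In PL vs LG, CXCL2 lay higher and CXCL14 lower, beside 3.42% and 30.5% (33.9% in all), and in PL vs EL CXCL2 alone lay higher, beside 3.05%. In W2 vs PL, CXCL12 and CXCL14 lay higher, beside 40.6%, and CXCL2 lower, beside 3.37%.

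**Figure D1:**
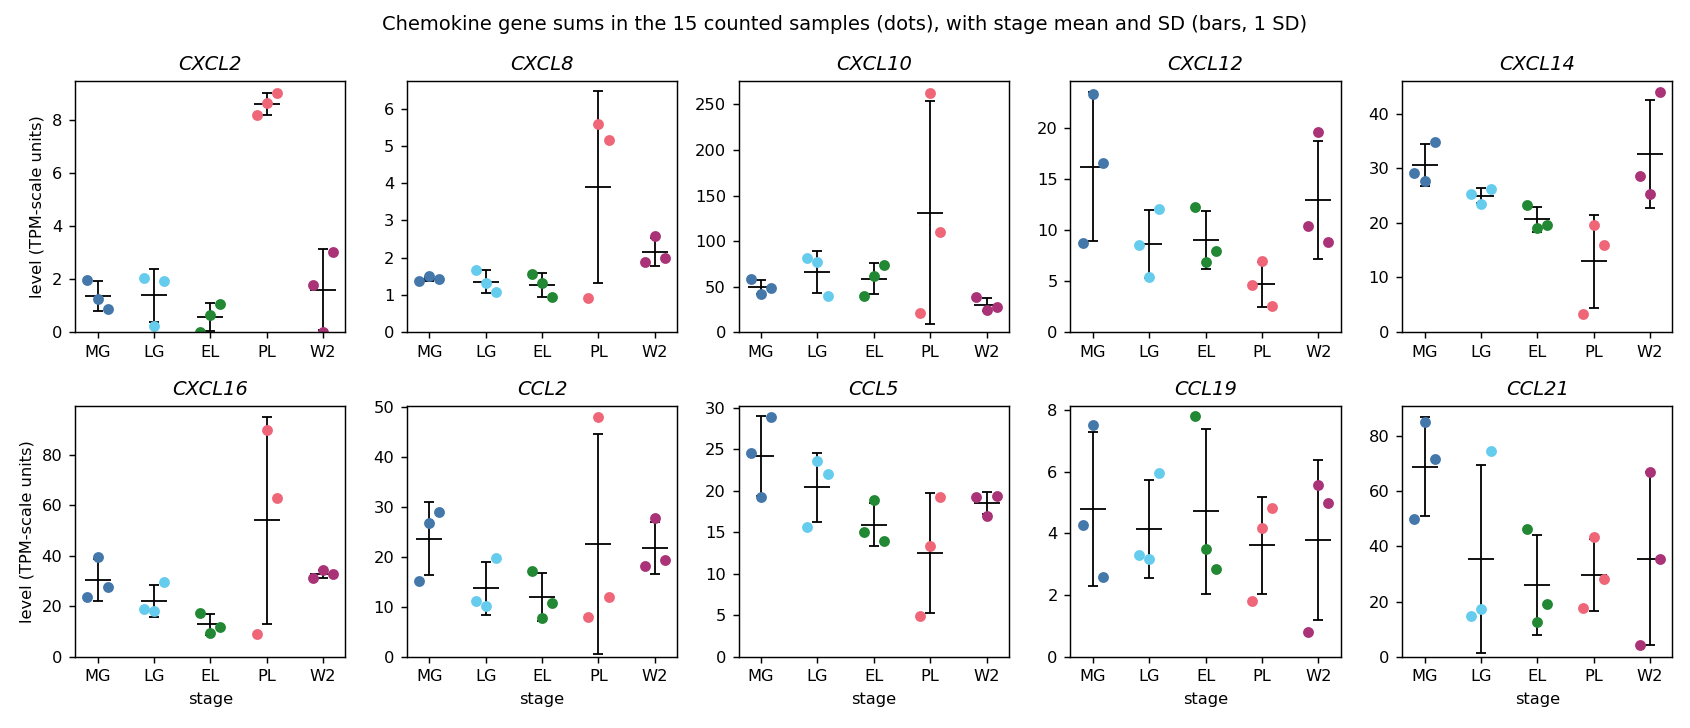
Level of each chemokine gene in TPM-scale units (y axis, linear, a separate scale per gene) in the 3 counted samples of each stage (dots, x axis), with the stage mean and 1 SD as bars. CXCL2 stood at 8.17 to 9.00 units in PL and at 3.03 or less elsewhere, while in CXCL8, CXCL10 and CXCL16 PL replicate 2 lay at the bottom and the other PL samples at the top.

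The neutrophil attractant CXCL2 was higher in PL than in every other stage. Its levels were 8.17, 8.62 and 9.00 units in the PL samples (mean 8.59 ± 0.417 SD). They were 1.96, 1.24 and 0.867 in MG, 2.03, 0.235 and 1.91 in LG, 0, 0.641 and 1.08 in EL, and 1.76, 0 and 3.03 in W2. All 3 PL samples exceeded all 12 others, which held for 1.1% of gene sums. CXCL2 rose in PL vs MG by a log2 fold change of 2.33 (SE 0.69, adjusted p = 0.028), in PL vs LG by 2.46 (SE 0.69, adjusted p = 0.033) and in PL vs EL by 3.23 (SE 0.69, adjusted p = 0.021). In W2 vs PL it fell by 2.52 (SE 0.69, adjusted p = 0.016). These 4 calls also passed the study's rule for a differentially expressed transcript (DET), a log2 fold change of 2 or more in size, which 3.96% of gene sums passed in PL vs MG, 2.7% in PL vs LG, 1.05% in PL vs EL and 5.22% in W2 vs PL; higher calls by adjusted p alone made up 2.23%, 1.62% and 0.777% in the first 3 and lower calls 2.48% in the last. By mean the order was PL, W2, LG, MG and EL, and only the step from PL to W2 was called. CXCL2 was also the only member called by the F test over the 5 stages (adjusted p = 0.035, with 18.3% of gene sums called).

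The 3 rises of CXCL2 kept a log2 fold change of 2.91 in PL vs MG (adjusted p = 0.015), 2.93 in PL vs LG (0.018) and 3.59 in PL vs EL (0.010) under median ratio scaling, with -3.09 in W2 vs PL (0.010). Zeros in EL and W2 made the fold depend on the added constant: with 0.1 in place of 0.5 it was 2.65 in PL vs MG, with an adjusted p of 0.13, and none of the 4 comparisons was called. Without PL replicate 2 it was 2.37 in PL vs MG, with an adjusted p of 0.063, and 2.50 in PL vs LG, with 0.072. CXCL2 has close relatives in its cluster on chromosome 8, and how reads shared between them were divided is not stated, so its values carry that uncertainty.

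CXCL8 (interleukin-8), the other neutrophil attractant, was low in 13 of the 15 samples. It stood at 5.59 and 5.14 units in PL replicates 3 and 6 and at 0.927 in PL replicate 2. MG held 1.36, 1.49 and 1.42, LG 1.68, 1.31 and 1.08, EL 1.57, 1.31 and 0.936, and W2 1.87, 2.59 and 2.00 units. PL replicate 2 was therefore below all other samples and the other PL samples above all others, and no comparison was called. The smallest p was in PL vs EL, with a log2 fold change of 1.06 (SE 0.45, 95% interval 0.09 to 2.04, adjusted p = 0.22). Without PL replicate 2 it was 1.74 (adjusted p = 0.0014), and CXCL8 was then also higher in PL vs MG (1.61, adjusted p = 0.0011) and PL vs LG (1.67, 0.0013) and lower in W2 vs PL (-1.15, 0.0050). Under median ratio scaling with all samples it was called in PL vs MG (1.44, adjusted p = 0.033) and PL vs LG (1.38, 0.045).

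Of the neutrophil markers 4 of 6 could be measured, and CXCR2 and MPO had no values. S100A8, S100A9 and S100A12, subunits of calcium-binding proteins of the neutrophil cytoplasm, rose in PL vs MG and fell in W2 vs PL. Of all gene sums 2.23% were called higher in PL vs MG and 2.48% lower in W2 vs PL. S100A8 was listed at 0 in all counted samples of LG, EL and W2. It stood at 3.50, 2.69 and 12.7 units in PL replicates 2, 3 and 6, an order that differs from that of CXCL8. CSF3R, the G-CSF receptor, was not called in PL vs MG (log2 fold change -0.62, adjusted p = 0.24). The summed level of the 4 markers ranged from 1.21 to 3.56 units in MG, from 9.21 to 47.1 in PL and from 1.30 to 2.79 in W2. In a bulk sample, more cells of a type and more RNA per cell cannot be told apart, and the part of these cells in the chemokine values was not tested.

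The interferon-inducible CXCL10 spread widely within PL. It stood at 21.3, 263 and 109 units in PL replicates 2, 3 and 6. Levels were 57.8, 42.3 and 48.6 in MG, 81.8, 77.1 and 39.9 in LG, 40.1, 61.6 and 73.6 in EL, and 38.6, 24.6 and 27.8 in W2. The W2 samples lay below every MG, LG and EL sample, and PL overlapped every other stage. No comparison was called; in W2 vs PL the log2 fold change was -1.50 (SE 0.66, 95% interval -2.95 to -0.06, adjusted p = 0.0995). It was -2.23 under median ratio scaling (adjusted p = 0.031) and -2.49 without PL replicate 2 (adjusted p = 0.0017), and without that sample CXCL10 was also higher in PL vs MG (1.78, adjusted p = 0.012), PL vs LG (1.42, 0.047) and PL vs EL (1.57, 0.042).

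Its relatives CXCL9 and CXCL11 share the receptor CXCR3 with it. CXCL11 showed the same pattern of samples, with 0.329, 29.7 and 8.87 units in PL replicates 2, 3 and 6 and 0.427 to 1.44 in the other 12, and it was not called in PL vs MG with all samples. Without PL replicate 2 its log2 fold change in PL vs MG was 3.21 (adjusted p = 0.00065). CXCL9 stood at 8.48 to 13.9 units in MG and at 1.19 to 7.97 in PL, without a call. IRF7, a transcription factor of the interferon response, was not called in any comparison.

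CXCL16, a membrane-bound ligand that is shed by ADAM10 and ADAM17 and binds CXCR6, stood at 9.14, 89.96 and 63.0 units in PL replicates 2, 3 and 6. In EL the level was 9.49 to 17.3 units, in LG 18.1 to 29.5, in MG 23.8 to 39.7 and in W2 31.3 to 34.3. PL thus held both the lowest and the 2 highest values of the 15. All EL samples lay below all MG, LG and W2 samples. With all samples the log2 fold change was 1.56 in PL vs EL (SE 0.62, adjusted p = 0.19) and 1.37 in W2 vs EL (SE 0.62, 95% interval 0.02 to 2.72, adjusted p = 0.195). Without PL replicate 2, CXCL16 was called in PL vs EL (2.55, adjusted p = 0.00059), PL vs LG (1.78, 0.0032), PL vs MG (1.33, 0.010) and W2 vs PL (-1.18, 0.014). It was then also called in W2 vs EL (1.37, adjusted p = 0.013) and EL vs MG (-1.22, 0.049). These 2 comparisons hold no PL sample, and their fold changes stayed the same. The gene sums called higher in W2 vs EL went from 0.377% to 16%, and those called lower in EL vs MG from 0.0154% to 1.55%. With median ratio scaling as well, no member was called in either.

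Fits without PL replicate 2 rest on 2 PL samples, the highest of the 15 in CXCL8, CXCL10 and CXCL16. Larger differences in these fits follow from the omission and are no separate support. That same PL sample separated the calls of these 3 genes. Without it, 3 of 10 members were higher and 2 lower in PL vs MG, where 3.82% of gene sums were higher and 16.7% lower; 3 were higher in PL vs LG (3.19%), 4 in PL vs EL (3.72%), and 4 were lower and 1 higher in W2 vs PL (3.88% and 22.9%). CD14, a lipopolysaccharide co-receptor of macrophages and epithelium, followed the same samples, with 9.23 units in the lowest and 234 and 298 in the other PL samples, against 3.45 to 9.92 in the other 12. Each of the 15 samples was left out in turn, and why this one stood apart was not tested.

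**Figure D2:**
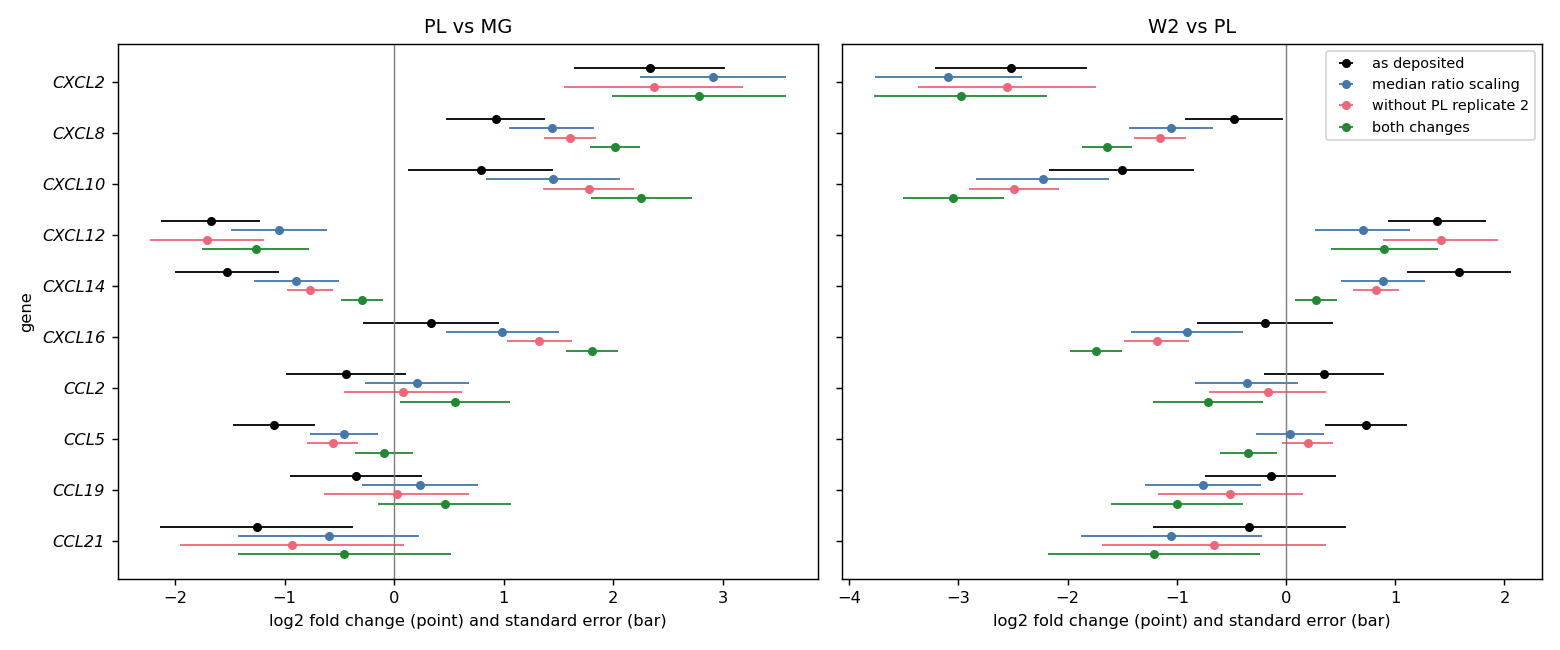
Log2 fold change (x axis, point) with its standard error (bar) of each chemokine (y axis) in PL vs MG and W2 vs PL, for the values as deposited, after median ratio scaling, without PL replicate 2, and with both changes. CXCL2 stayed above 2 in PL vs MG in all 4, CXCL8, CXCL10 and CXCL16 moved up in PL vs MG without replicate 2, and CXCL12, CXCL14 and CCL5 moved towards 0 under scaling.

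CXCL16 is held by 2 reference transcripts, and their mix differed in a single sample. NM_213811.1 carried 82.8% or more of the gene in 14 of the 15 samples. In PL replicate 3 the second transcript, XM_013981276.2, held 40.7 of 89.96 units, a share of 45.2%, against 17.2% or less elsewhere. In PL replicate 6, where the gene was also high, it held 4.41 of 63.0 units. Neither transcript was called in a comparison.

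The monocyte attractant CCL2 was not called in any comparison. It stood at 15.3, 26.7 and 29.0 units in MG, 11.2, 10.2 and 19.8 in LG, 17.2, 7.83 and 10.7 in EL, 7.89, 48.0 and 12.0 in PL, and 18.1, 27.7 and 19.5 in W2. PL replicate 3 held the highest value of the 15, and PL replicate 2 the lowest but 1. The smallest p was in EL vs MG, where the log2 fold change was -0.98 (SE 0.55, 95% interval -2.17 to 0.21, adjusted p = 0.39). Its receptor CCR2 was not called either.

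Of the 6 macrophage markers measured, all but CD14 had a negative log2 fold change in PL vs MG. CSF1R, C1QA, C1QB and C1QC were called lower (CSF1R -2.29, adjusted p = 0.0056), beside 23% of gene sums. CD163 was not called (-1.98, adjusted p = 0.069), and CD14 rose (3.52, adjusted p = 0.017). Under median ratio scaling C1QC was no longer called (-0.57, adjusted p = 0.29). The summed level of the 6 was 441 to 501 units in MG, 128 to 481 in PL and 367 to 451 in W2. CD14 made up 234 and 298 units of the sum in PL replicates 3 and 6. The part of macrophages in the CCL2 and CXCL16 values was not tested.

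CCL5, an attractant of T cells and monocytes, was lower in PL than in MG. Its levels were 24.5, 19.3 and 28.9 units in MG, 15.6, 23.6 and 22.0 in LG, 15.0, 18.9 and 13.9 in EL, 4.94, 13.3 and 19.3 in PL, and 19.2, 17.0 and 19.3 in W2. By mean the order was MG, LG, W2, EL and PL, and no step between neighbours in that order was called. The lowest MG sample, at 19.30 units, lay just above the highest PL sample, at 19.29. In PL vs MG the log2 fold change was -1.10 (SE 0.37, adjusted p = 0.048), beside 23% of gene sums called lower in that comparison, and it was the only call of CCL5. Under median ratio scaling it was -0.46 (adjusted p = 0.40), and without PL replicate 2, which had the lowest value, -0.56 (adjusted p = 0.12).

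Of 6 T cell markers, 3 were called lower in the same comparison, beside 23% of all gene sums. CD3E, CD3G and CD2 fell in PL vs MG, by 1.10, 1.09 and 1.39 on the log2 scale (adjusted p = 0.028, 0.014 and 0.0068), while CD3D, CD4 and CD8A were not called. These 3 calls were lost under median ratio scaling. The summed level of the 6 was 32.8 to 35.2 units in MG, 7.30 to 20.8 in PL and 26.5 to 32.1 in W2. The part of T cells in the CCL5 values was not tested.

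**Figure D3:**
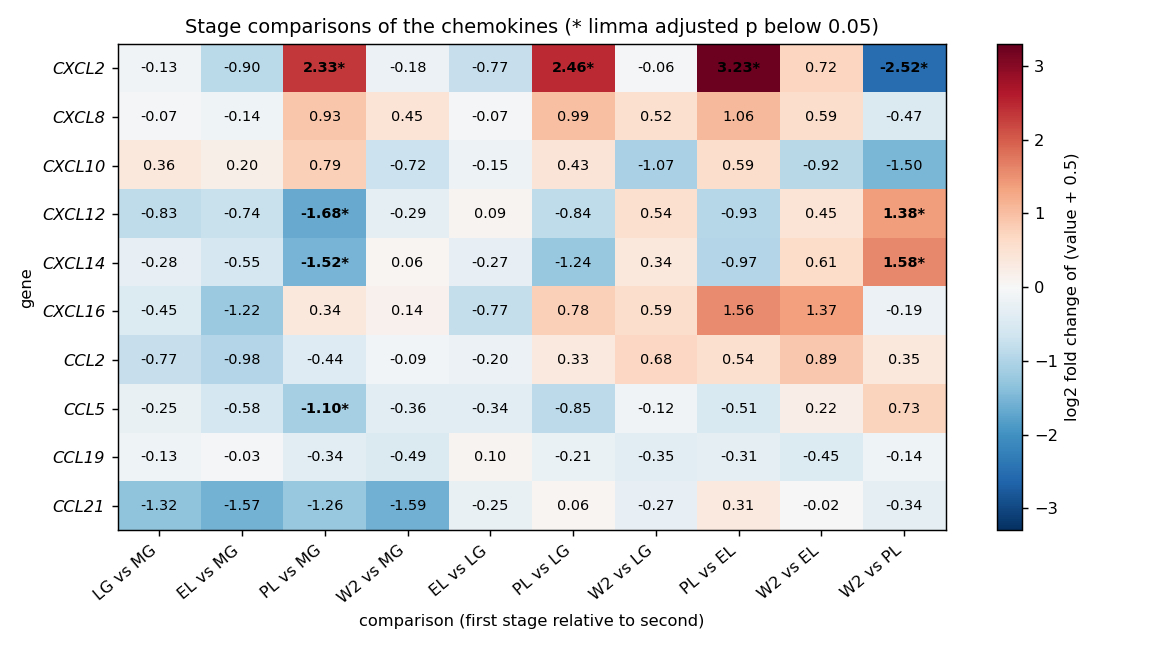
Log2 fold change of value + 0.5 for each chemokine (rows) in the 10 stage comparisons (columns, first stage relative to the second), with the color from blue (lower) to red (higher) and an asterisk at an adjusted p below 0.05. All 9 asterisks are in comparisons with PL, 4 of them in the CXCL2 row.

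CXCL12, the ligand of CXCR4 made by stromal cells, was lower in PL than in MG and W2. Its sums were 8.73, 23.4 and 16.5 units in MG, 8.53, 5.37 and 12.1 in LG, 12.3, 6.89 and 7.96 in EL, 4.59, 6.95 and 2.54 in PL, and 10.4, 19.6 and 8.85 in W2. PL did not overlap MG or W2, and it overlapped EL and LG. The log2 fold change was -1.68 in PL vs MG (SE 0.45, adjusted p = 0.019; 3 members were among the 23% of gene sums called lower) and 1.38 in W2 vs PL (SE 0.45, adjusted p = 0.033; 2 members were among the 30.4% called higher). Under median ratio scaling the values were -1.05 (adjusted p = 0.15) and 0.70 (adjusted p = 0.33). With PL replicate 2 left out the rise in W2 vs PL was 1.41, with an adjusted p of 0.069, and it was also lost without PL replicate 6 (1.04, 0.11), W2 replicate 2 (1.49, 0.054) or W2 replicate 3 (1.05, 0.13). The fall in PL vs MG was lost without PL replicate 6 (-1.34, adjusted p = 0.058), MG replicate 3 (-1.36, 0.083) or MG replicate 6 (-1.61, 0.058).

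The 3 CXCL12 transcripts did not follow each other. NM_001009580.1 stood at 2.03, 5.81 and 3.44 units in MG and at 0.951, 0.377 and 0.0829 in PL, and it was the only one of the 13 member transcripts called, in PL vs MG (log2 fold change -2.13, SE 0.53, adjusted p = 0.041, beside 4.28% of transcripts in that comparison and 7.97% in any). XM_005671243.3 stood at 5.01 to 7.72 units in MG and at 0.498 to 3.61 in PL, with a log2 fold change of -2.12 that missed the threshold (SE 0.62, adjusted p = 0.076). XM_005671244.3 stood at 1.69 to 9.85 units in MG, 1.96 to 3.08 in PL and 5.83 to 9.99 in W2, with a log2 fold change of -0.74 in PL vs MG (adjusted p = 0.64). It held 19.3% to 42.1% of the gene in MG, 0% to 37.8% in LG, 60.6% to 72.8% in EL, 42.6% to 77.1% in PL and 51.0% to 67.9% in W2. The shares of MG and EL did not overlap, a difference that was not tested.

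**Figure D4:**
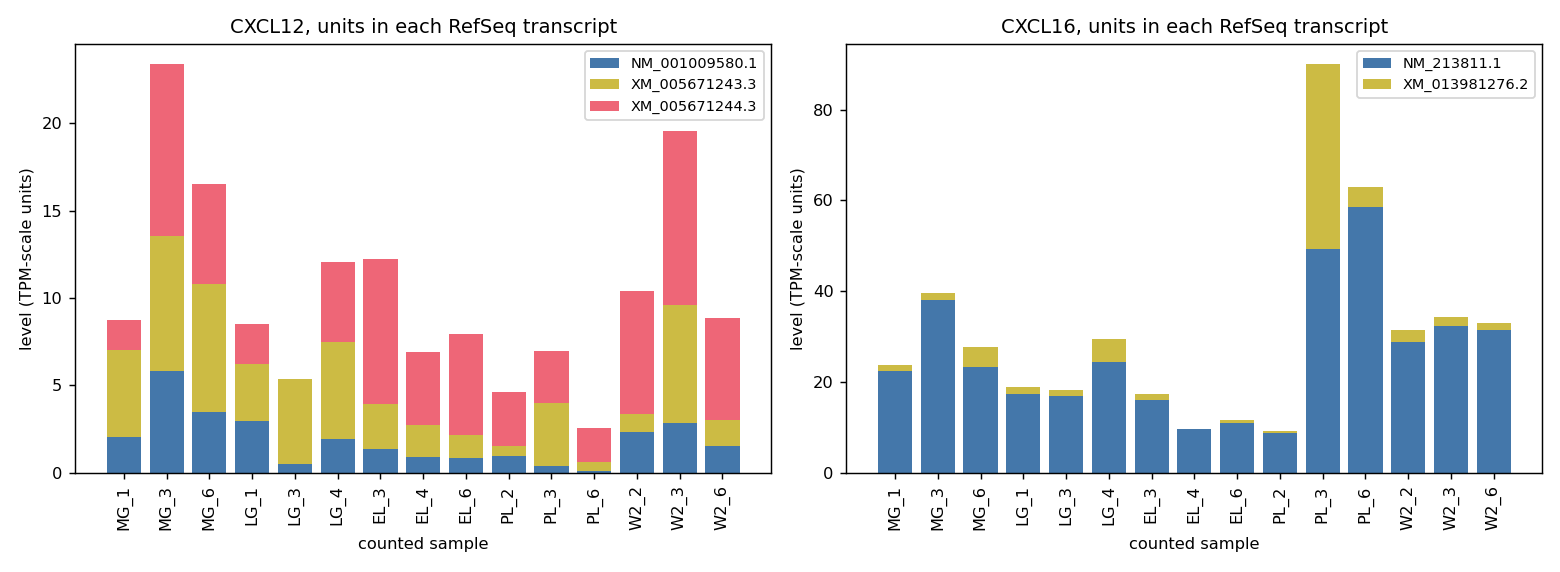
Units (y axis, stacked from 0) in each reference transcript of CXCL12 (left) and CXCL16 (right) in the 15 counted samples (x axis, ordered by stage). XM_005671244.3 makes up 60.6% to 72.8% of CXCL12 in the EL samples, and XM_013981276.2 makes up 45.2% of CXCL16 in PL replicate 3.

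CXCL14, a chemokine of epithelia and stroma, was lower in PL than in MG and W2. It stood at 29.1, 27.7 and 34.9 units in MG, 25.2, 23.5 and 26.2 in LG, 23.2, 19.1 and 19.7 in EL, 3.26, 19.6 and 15.9 in PL, and 28.6, 25.3 and 43.9 in W2. Samples of MG lay above those of LG, and those of LG above those of EL, without overlap, but with calls for neither step. In PL vs MG the log2 fold change was -1.52 (SE 0.47, adjusted p = 0.034), in W2 vs PL 1.58 (SE 0.47, adjusted p = 0.023), and in PL vs LG, where the groups did not overlap either, -1.24 (SE 0.47, adjusted p = 0.095). Leaving out PL replicate 2 cut the values to -0.77 and 0.82 and left both calls (adjusted p = 0.028 and 0.016), while median ratio scaling ended them, with -0.89 (adjusted p = 0.17) and 0.89 (adjusted p = 0.16). With both changes they were -0.29 and 0.28.

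Most fibroblast markers were called in the same comparisons as CXCL12 and CXCL14. COL1A1, COL3A1, DCN, LUM and PDGFRA fell in PL vs MG, and 5 of 6 rose in W2 vs PL, beside 23% of all gene sums lower and 30.4% higher. Under median ratio scaling 2 of 6 were lower in PL vs MG, COL3A1 (-1.02, adjusted p = 0.036) and LUM (-1.29, 0.0043), and 2 were higher in W2 vs PL. LUM, which encodes the matrix proteoglycan lumican, fell by 1.96 on the log2 scale in PL vs MG (adjusted p = 0.0013). The summed level of the 6 was 1541 to 2336 units in MG, 472 to 1087 in PL and 1401 to 2632 in W2, and their part in the ligand values was not tested.

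CCL19 and CCL21, the ligands of CCR7 that guide dendritic cells and T cells through lymphatic vessels and lymphoid tissue, were not called in any comparison. CCL19 stood at 4.28, 7.51 and 2.59 units in MG, 3.31, 3.16 and 5.97 in LG, 7.80, 3.49 and 2.86 in EL, 1.82, 4.18 and 4.83 in PL, and 0.799, 5.56 and 4.99 in W2. All stages of CCL19 overlapped, and the interval of its difference in PL vs MG ran from -1.65 to 0.96 on the log2 scale. CCL21 stood at 49.9, 85.2 and 71.8 units in MG, 14.6, 17.2 and 74.7 in LG, 46.4, 12.5 and 19.2 in EL, 17.6, 43.5 and 28.2 in PL, and 4.20, 67.0 and 35.5 in W2. The MG samples lay above all EL and PL samples, while LG and W2 spread over both ranges. In W2 vs MG the log2 fold change was -1.59 with a 95% interval from -3.51 to 0.32 (adjusted p = 1). LYVE1, a receptor of lymphatic endothelium, was as uneven, with 2.49 to 11.8 units in LG and 1.52 to 12.7 in W2, and none of the 4 lymphatic endothelial markers was called in PL vs MG or W2 vs PL.

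The median log2 fold change of the 10 members was -0.39 in PL vs MG, 0.20 in PL vs LG, 0.43 in PL vs EL and -0.17 in W2 vs PL. The medians of the 12003 better expressed gene sums in these comparisons were -0.70, -0.57, -0.33 and 0.81. In PL vs MG, 4 of the 10 members were above 0, in PL vs EL 6. No member list was tested as a set.

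The ligands outside the 10 members were 16 measured genes of 28 in a fixed list, and 7 of them were called, all in comparisons with PL. In PL vs MG, 2 rose and 3 fell, beside 2.23% and 23% of all gene sums. CCL26, an eotaxin that attracts eosinophils through CCR3, rose from 1.61 to 3.73 units in MG to 4.37, 19.0 and 12.5 in PL, by a log2 fold change of 1.99 in PL vs MG (SE 0.54, adjusted p = 0.020), 2.49 in PL vs LG (adjusted p = 0.010) and 2.80 in PL vs EL (adjusted p = 0.013). It fell in W2 vs PL by 1.70 (adjusted p = 0.030). PPBP, the precursor of neutrophil-activating peptide 2, was listed at 0 in all MG and W2 samples and stood at 0.480 to 4.05 units in PL, with a call in both comparisons. AMCF-II, a CXC ligand of pig neutrophils, fell in W2 vs PL, from 0.464 to 3.12 units down to 0 to 0.196 (adjusted p = 0.029).

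CCL4, CCL28 and CXCL13 were called lower in PL vs MG, and none of them was called in PL vs EL. CCL4, an attractant of monocytes and T cells, stood at 10.8 to 23.4 units in MG, at 0, 4.14 and 2.49 in PL and at 12.6 to 21.7 in W2, with a log2 fold change of -3.14 in PL vs MG (SE 0.76, adjusted p = 0.012) and 3.25 in W2 vs PL (adjusted p = 0.0073). CCL4 was at -2.77 (adjusted p = 0.039) and 2.82 (0.032) under median ratio scaling. CCL28, a mucosal ligand that attracts IgA-secreting cells through CCR10, stood at 180 to 238 units in MG, 51.3 to 174 in PL and 181 to 262 in W2. CCL28 fell in PL vs MG by 1.16 (SE 0.35, adjusted p = 0.029) and was not called under median ratio scaling (-0.49, adjusted p = 0.54). Its lowest PL values, 51.3 and 90.8, were in replicates 3 and 6, and replicate 2 held 174, the reverse of the order in CXCL8, CXCL10 and CXCL16. CXCL13, a B cell attractant, fell in PL vs MG by 3.29 (SE 0.72, adjusted p = 0.0069), from 3.86 to 15.8 units to 0 to 0.407, and it was at -3.02 under median ratio scaling (adjusted p = 0.020). CCL8, a monocyte attractant, was called in W2 vs PL (1.34, adjusted p = 0.043) at levels of 2.29 units or less, and not under median ratio scaling (1.13, adjusted p = 0.12).

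Of 8 signalling receptors measured out of 17 listed, 3 fell in PL vs MG and 3 rose in W2 vs PL, beside 23% of all gene sums lower and 30.4% higher in these comparisons. CXCR4, the CXCL12 receptor on leukocytes, stood at 89.1, 169 and 101 units in MG, 91.0, 78.6 and 166 in LG, 100, 20.1 and 47.6 in EL, 4.16, 13.2 and 14.6 in PL, and 137, 163 and 121 in W2. All 3 PL samples lay below all others, as for 11.3% of gene sums. CXCR4 fell in PL vs MG (log2 fold change -3.55, SE 0.56, adjusted p = 0.0012), in PL vs LG (-3.43, adjusted p = 0.0023) and in PL vs EL (-2.23, adjusted p = 0.042), and rose in W2 vs PL by 3.82 (SE 0.56, adjusted p = 0.00057). Under median ratio scaling the value was -2.91 in PL vs MG (adjusted p = 0.0022) and 3.12 in W2 vs PL (adjusted p = 0.0012). CX3CR1, the fractalkine receptor, fell in PL vs MG by 1.62 (SE 0.29, adjusted p = 0.0022) and CXCR6, the CXCL16 receptor, by 1.18 (SE 0.25, adjusted p = 0.0060). In W2 vs PL they rose by 1.48 (adjusted p = 0.0027) and 0.96 (adjusted p = 0.012). With median ratio scaling CX3CR1 was at -1.06 in PL vs MG (adjusted p = 0.0064) and 0.86 in W2 vs PL (0.016), and CXCR6 at -0.77 (0.034) and 0.51 (0.13). CXCR6 was low throughout, at 0.398 to 0.648 units in PL and 1.51 to 2.14 in MG.

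**Figure D5:**
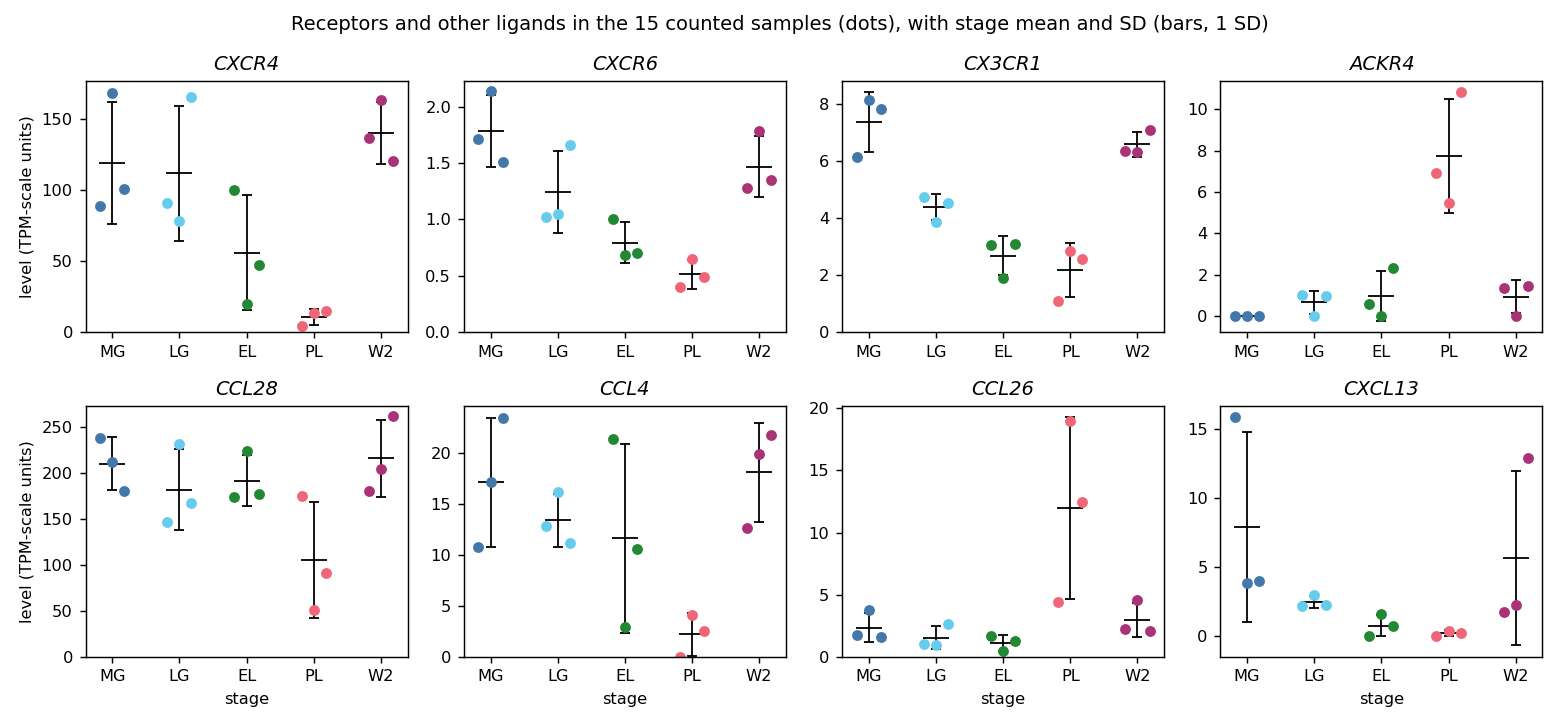
Levels in TPM-scale units (y axis, linear, a separate scale per gene) of 4 receptors and 4 further ligands in the 3 counted samples of each stage (dots), with the stage mean and 1 SD as bars. CXCR4, CXCR6 and CCL4 are low in PL, and ACKR4 and CCL26 are highest there.

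The atypical receptors bind chemokines without G protein signalling and remove them. ACKR4, which takes up CCL19, CCL21 and CCL25, stood at 6.93, 5.45 and 10.8 units in PL and at 2.31 or less in the other 12 samples, with 0 in all MG samples. It was called higher in PL vs MG. It also rose in PL vs LG by 2.95 (SE 0.67, adjusted p = 0.013) and in PL vs EL by 2.79 (SE 0.67, adjusted p = 0.035). In W2 vs PL it fell by 2.71 (SE 0.67, adjusted p = 0.0094). ACKR2, a scavenger of inflammatory CC ligands, stood at 1.00, 8.11 and 13.7 units in PL replicates 2, 3 and 6 and at 0.650 to 2.39 in the others. It was not called with all samples as deposited, and was called in PL vs MG without PL replicate 2 (2.45, adjusted p = 0.0019) and under median ratio scaling (2.02, adjusted p = 0.044).

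Cytokines and transcription factors that induce chemokines were followed next. In PL vs MG, 23% of all gene sums were called lower and 2.23% higher. Of 8 listed inducers only TNF and LTB had values, and LTB, a lymphotoxin subunit, fell in PL vs MG by 1.32 (SE 0.41, adjusted p = 0.033). Of the 9 regulators, IRF1 fell in PL vs MG by 1.03 (SE 0.33, adjusted p = 0.037) and RELA also fell (adjusted p = 0.019). RELA, an NF-kappaB subunit, stood at 1.45, 0 and 19.2 units in PL and at 15.7 to 31.0 in the other 12 samples, so the PL values differed widely among themselves. The falls of LTB, IRF1 and RELA were not called under median ratio scaling, with an adjusted p of 0.24, 0.37 and 0.080. NFKBIA, the NF-kappaB inhibitor, and NFKBIZ, its nuclear relative, were not called as deposited, and under that scaling they rose in PL vs MG by 0.96 (adjusted p = 0.0063) and 1.26 (adjusted p = 0.0026). DPP4, a peptidase that trims chemokines, was listed at 0 in every sample except 2 of W2, at 0.874 and 1.93 units. At these low levels DPP4 was called higher in W2 vs PL, beside 30.4% of all gene sums. It was the only call among the 3 processing genes. The shedding proteases ADAM10 and ADAM17 were not called with the values as deposited.

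Markers of the other cell types were counted in PL vs MG, where 23% of all gene sums were called lower and 2.23% higher. None of 6 epithelial and 5 myoepithelial markers was called. In the same comparison 1 of 4 endothelial and 1 of 4 B and plasma cell markers fell. Of 3 adipocyte markers LEP rose and FABP4 fell. The summed epithelial markers reached 837 to 1766 units in PL and 1343 to 1835 in MG. Within PL, keratins split the samples as CXCL8, CXCL10 and CXCL16 did. KRT5, of basal cells, stood at 57.3, 273 and 305 units in PL replicates 2, 3 and 6 and at 175 or less in the other stages. KRT8, of luminal cells, stood at 69.9, 345 and 257 units in these samples and at 94.6 to 350 in the other stages. Their part in the chemokine values was not tested.

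Among the 45 pairs of members, 4 were correlated over the 15 samples after Benjamini-Hochberg adjustment (permutation test, two-sided, 100000 permutations), all of them positively. Samples share a scale that sums to a fixed total, and PL replicate 2 was low in many genes. How many pairs of other gene sums would pass was not computed, so the count shows nothing particular to chemokines. CXCL8 and CXCL16 had r = 0.83 (p = 0.00011, adjusted p = 0.0050; Spearman rho = 0.80, p = 0.00057), which was 0.64 without the 2 samples farthest from the CXCL8 median and 0.54 without PL. CXCL16 and CCL2 had r = 0.78 (p = 0.00069, adjusted p = 0.010; rho = 0.76, p = 0.0014), with 0.59 and 0.87. CCL19 and CCL21, the neighbours on chromosome 10, had r = 0.78 (p = 0.0007, adjusted p = 0.010; rho = 0.65, p = 0.011), with 0.57 and 0.79. CXCL14 and CCL5 had r = 0.87 (p = 0.0030, adjusted p = 0.034; rho = 0.70, p = 0.0049), with 0.58 and 0.48. After subtraction of the stage means the 4 values of r were 0.88, 0.77, 0.86 and 0.81, and all 4 pairs passed. The deviations were permuted across stages, although their spread differed between stages (CXCL8 SD 2.57 in PL and 0.066 in MG). This second result is therefore no separate support. After median ratio scaling or quantile normalization, none of the 45 pairs passed the adjustment.

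The gene sums most like each member over the 15 samples are given as a description, by Pearson's r of log2 values among the 12003 gene sums with a mean of at least 5 units. For CXCL2 they were LOC100737113 (r = 0.82), ZFP36 (0.81), which encodes an mRNA-destabilizing protein, and KEF22_t14 (0.80). For CXCL8 the named gene was LY96 (0.94), the partner of the lipopolysaccharide receptor TLR4, beside 2 assembled loci, and for CXCL10 they were STEAP4 (0.86) and FOXO1 (0.82) beside 1. CXCL12 was most like EFEMP1 (0.95), a matrix glycoprotein gene, beside 2 assembled loci (both 0.93), and CXCL16 like PLCD1 (0.98), COL17A1 (0.98) and CLU (0.96). CXCL14 was most like EXOSC2 (0.98), CD2BP2 (0.97) and HMGB3 (0.97). CCL2 was most like ACTN1 (0.93), THY1 (0.92), a surface protein of fibroblasts, and OLFML3 (0.90). CCL5 was most like LOC100517502 (0.95), an assembled locus (0.92) and NICN1 (0.92), CCL19 like PHIP (0.85), SBNO1 (0.84) and GTF3C3 (0.84), and CCL21 like ELN (0.88), the elastin gene, and MMRN1 (0.87), a gene of lymphatic endothelium, beside an assembled locus.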

How the data were processed

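RNA of 30 sow mammary samples, 6 at each of 5 stages, was sequenced by the authors. They trimmed reads with Trimmomatic, aligned them to Sscrofa11.1 with HISAT2 and used StringTie to assemble transcripts and estimate their levels, keeping those with a value of at least 0.5 in at least 1 stage. They name RUVs for unwanted variation, and whether the table includes it is not stated. The deposited values, called FPKM by the authors, sum to between 997480 and 1002643 per sample and were treated as TPM. Read counts, which the authors placed in another repository, were not used here, so precision comes from the spread between samples. Differences between stages rest on 3 counted samples each, or on fewer in a stage with a sample left out. An exact permutation test of 3 against 3 cannot go below a p of 0.1.

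Transcripts were matched to genes by RefSeq identifier (32396 of 61773) and summed per gene. Assembled transcripts carry no gene name and are in no member's sum. Gene sums were compared as log2(value + 0.5) with limma 3.58.1 in R 4.3.3 (trended variance, 15 samples, 10 comparisons, Benjamini-Hochberg adjustment over 26012 gene sums or 61773 transcripts), checked on simulated data. Correlations used Python 3.11.15 with scipy 1.17.1.

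The text names every member and its transcripts, the comparison with the smallest p and each call, the 3 gene sums most like it, and the called genes of the fixed lists of other ligands, receptors, inducers, regulators and processing enzymes. Other values of list genes were chosen after they were seen. The members and lists were chosen with earlier results of these data known. Alternatives were 2 other pseudocounts, 2 filters, 2 other scalings, other uses of the near-identical samples, the replicate number as a block, separate fits, the main transcript of a gene, and each sample left out in turn. Some genes of these lists are not reported here. No sequences are shown, and sequencing batches are not named in the labels.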

Additional observations from a re-analysis of the deposited data

How the results depend on the processing

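Of 15 single results followed through up to 27 alternatives, 14 kept their direction in all of them. The exception was CCL19 in W2 vs MG, -0.49 on the log2 scale, which became 0.032 with the replicate block and ran from -0.88 (without W2 replicate 3) to 0.23 (without W2 replicate 2) with single samples left out. The 4 members called in any comparison became 9 with all 6 samples per stage and 7 with the near-identical mean as 1 further sample, 1 with the compared stages fitted alone, 1 when a log2 fold change of 2 or more in size was also asked for, and 3 to 6 with single samples left out. The single member called over the 5 stages (CXCL2) became 0 with a pseudocount of 0.1, 0 with a mean of at least 5 units (which removes CXCL2), 2 with quantile normalization, 9 with all 6 samples, 6 with the near-identical mean, 3 with median ratio scaling without PL replicate 2 (an alternative chosen after seeing the data), and 0 to 4 with single samples left out, where 4 was reached without PL replicate 2. The single transcript called became 2 with a pseudocount of 1, 2 with a stage mean of at least 1, 12 with all 6 samples, 9 with the near-identical mean, 0 with the compared stages alone, 4 with both changes to PL, and 0 to 4 with single samples left out. The 4 correlated pairs became 0 with quantile normalization, 0 with median ratio scaling, 18 with all 6 samples, 10 after subtraction of the stage means, and 3 to 5 with single samples left out. CCL5 in PL vs MG lost its call in 14 of 15 single omissions, with an adjusted p of 0.14 or less throughout. CXCL2 lost its call in 5 of 15 in PL vs MG (adjusted p up to 0.088), 6 in PL vs LG (0.11), 1 in PL vs EL (without EL replicate 3, 0.099) and 1 in W2 vs PL (without W2 replicate 3, 0.059), and CXCL14 in 3 in PL vs MG (the MG samples, up to 0.097) and 1 in W2 vs PL (without W2 replicate 6, 0.088). The near-identical samples differ from each other by at most 1.85% in the median, and the cause of these changes was not tested.

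Replicate numbers do not pair sows of different stages: over 19 same-numbered pairs of samples the correlation of deviations from the stage means ran from -0.093 to 0.13, with a median of -0.034, and 3 of them exceeded 0.1. With the replicate block, no member was called over the 5 stages (0) and no transcript in any comparison (0), and calls were lost for CXCL2 in PL vs LG (2.66, adjusted p = 0.092) and PL vs EL (3.34, 0.066), CXCL12 in PL vs MG (-1.77, 0.055), CXCL14 in PL vs MG (-1.13, 0.14) and CCL5 in PL vs MG (-0.91, 0.16).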
